A study of Mus musculus with 6 samples.

Results

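The genes described here carry a mouse symbol made of Zfp and a number, the name given to zinc finger protein genes. A gene was taken where its probe annotation held that 1 symbol and at least 1 of its probe sets had a mean deposited intensity of 50 or more over the 6 arrays. Zfp36, whose protein binds RNA, was left out by name. Of 304 such genes among the 18193 genes with a single symbol, 93 reached the minimum. They were thus chosen by their intensity averaged over all arrays, and these levels are given as a description only. The difference between the groups was not itself a criterion, but a gene high in 1 group alone could reach the minimum. The choice is therefore not independent of the difference for such genes, which are given below.

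A zinc finger is a short stretch of protein folded around a zinc ion that cysteines and histidines hold. Proteins with many classical fingers in a row read DNA sequence, and one large group of them carries a KRAB domain, which recruits the co-repressor Trim28 and, through it, enzymes and proteins of heterochromatin. Other proteins with a Zfp name bind RNA, work in ubiquitin or SUMO pathways, or help to build ribosomes, so that the shared name marks a protein fold and not a common task.

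The arrays were Affymetrix mouse arrays hybridized with RNA of C2C12 cells, a mouse myoblast line that stops dividing in suspension and fuses into myotubes when it differentiates. The knockdown cells were a stable pool transfected with PRDM2 shRNA, and the control cells a stable pool transfected with control GFP shRNA, with 3 arrays of each. Both pools were held for 48 hours in methylcellulose suspension medium with 20% fetal calf serum, described in the labels as G0. The labels call the arrays of a group biological replicates. Separate cultures or transfections are not stated, so p-values measure the spread between these arrays.

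Prdm2 itself, whose protein joins zinc fingers to a PR/SET domain, read 58.0, 51.5 and 29.0 on knockdown arrays 1 to 3, against 86.2, 73.6 and 47.1 on control arrays 1 to 3. The knockdown mean was 66.9% of the control mean, the groups overlapped, and the log2 difference of -0.51 missed the threshold (limma adjusted p = 0.313). Of 7 myoblast markers, all had a mean above 16, 1 rose and 1 fell. Their summed intensity, to which 1 gene with a mean of 3116 gave most, was 4257 to 4834 in the knockdown and 4891 to 5379 in the control. Of 8 markers of differentiated muscle 7 rose, with sums of 6833 to 8395 in the knockdown and 218 to 433 in the control, and all 5 measured proliferation markers fell, with sums of 61.8 to 97.6 and 570 to 860. Of the markers of other cells, 4 of 4 adipocyte, 3 of 5 leukocyte, 4 of 5 endothelial and 3 of 4 epithelial genes had means under 16. Among them 1 epithelial gene rose, and the epithelial sums were 73.8 to 95.2 in the knockdown and 40.2 to 53.8 in the control. The leukocyte sums were 66.4 to 117.6 in the knockdown and 117.6 to 211 in the control, apart by a very small gap, with none of the genes passing. Endothelial sums overlapped, at 43.1 to 71.7 in the knockdown and 45.0 to 92.1 in the control, as did adipocyte sums, at 17.7 to 24.7 and 9.94 to 24.3. Control array 3 had a Gapdh signal ratio of 5' to 3' probe sets of 0.0992, against 0.704 to 1.14 on the other arrays, and knockdown array 3 and control array 3 had low signals of the Dap spike, a bacterial transcript added at labelling, at 21.2 and 16.1 against 93.1 to 161 elsewhere. Since these are bulk samples, fewer cells of a type and less RNA per cell cannot be told apart. The part of these marker genes and of these array differences in the values below was not tested.

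Of the 93 genes, 3 rose and 3 fell in the knockdown, and 87 did not pass. Zfp503, Zfp608 and Zfp451 were higher, and Zfp469, Zfp704 and Zfp462 were lower. Passing means a limma adjusted p under 0.05 with adjustment over all 18193 genes. The 6 genes are 6.45% of the 93, where 5.16% of all genes tested passed, and 7.70% of all genes with a mean intensity of 50 or more. By direction, 2.96% of all genes rose and 2.19% fell, and at 50 or more 4.35% rose and 3.35% fell. A share this close to the background is no result about Zfp genes as a class. At an unadjusted p under 0.05 there were 23, or 24.7%, against 15.8% of all genes and 23.5% of genes at 50 or more. With the 2 arrays of lower spike signal dropped, 2 rose and 1 fell. The counts were the same when each gene's variance was estimated on its own (ordinary statistics). Over all genes fewer passed in both analyses too, with counts given below.

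**Figure D1:**
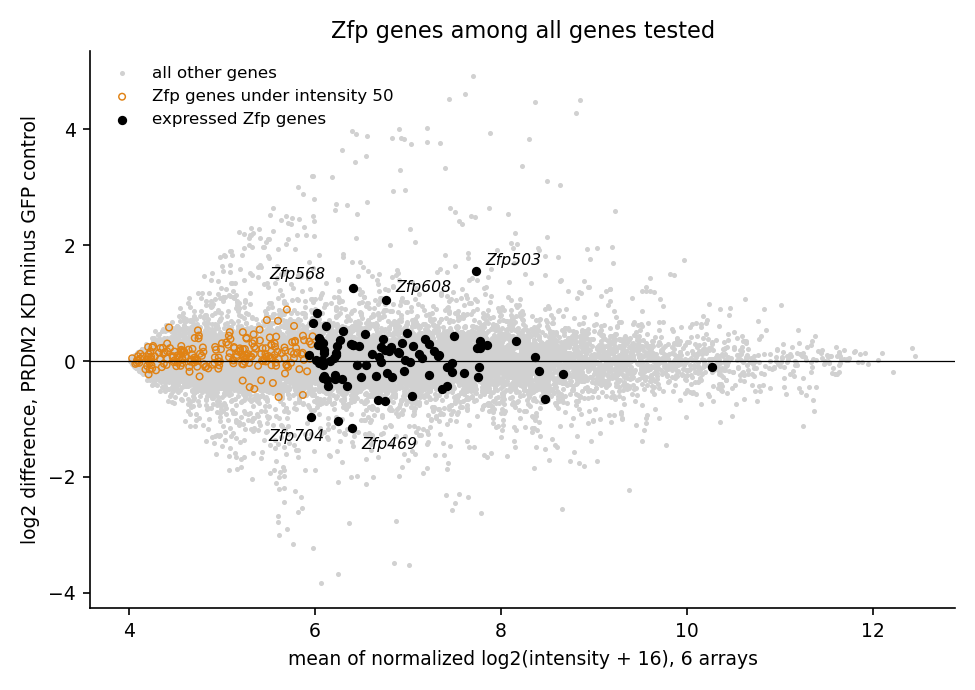
Each point is a gene, with the mean of its normalized log2(intensity + 16) over 6 arrays on the x axis and the log2 difference, PRDM2 knockdown minus GFP control, on the y axis. The 93 expressed Zfp genes (black) lie between -1.16 and 1.55, within the range of all genes (grey), which reaches -3.82 and 4.92, and orange circles are Zfp genes under an intensity of 50.

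Zfp503, also named Nolz1, encodes a repressor of the NET family of zinc finger proteins that acts in development, among others in striatal neurons of the mouse. It had intensities of 336, 366 and 379 on knockdown arrays 1 to 3, against 120, 146 and 63.9 on control arrays 1 to 3. Every knockdown value lay far above the highest control value, and control array 3 was the lowest of all. Zfp503 rose 2.94-fold on the transformed scale (log2 difference 1.55, SE 0.205, limma adjusted p = 0.00824), which was the largest difference among the 93 genes. Its other probe set, dimmer, had means of 90.1 ± 40.2 in the knockdown and 17.4 ± 4.85 in the control (SD, n = 3 each) and passed as well (log2 difference 1.59, limma adjusted p = 0.0259 over all probe sets). With ordinary statistics the adjusted p of Zfp503 was 0.102.

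Zfp703 encodes the other mouse protein of the NET family, and the human gene is amplified in luminal breast cancers. Its intensities were 345, 194 and 308 on the knockdown arrays, against 377, 452 and 437 on the control arrays. The groups did not overlap, with the knockdown lower, but the knockdown arrays differed widely. The log2 difference of -0.66 (SE 0.221) missed the threshold at a limma adjusted p of 0.194. Whether the differences of Zfp503 and Zfp703 differ from each other was not tested.

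Zfp608 is known in the mouse for holding down the recombination genes Rag1 and Rag2 in thymocytes. Its intensities were 149, 156 and 133 on the knockdown arrays, against 65.0, 62.7 and 47.1 on the control arrays. The groups lay far apart, and the values within each were close to each other. Zfp608 rose 2.07-fold (log2 difference 1.05, SE 0.109, limma adjusted p = 0.00312). Arrays of higher spike signal gave a difference of 1.06, and the 2 of lower signal gave 1.03. The other probe set had means of 66.7 ± 23.1 in the knockdown and 33.9 ± 7.75 in the control (SD, n = 3 each), a log2 difference of 0.65 that missed the threshold (limma adjusted p = 0.26 over all probe sets).

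Zfp451, whose human counterpart is a ligase that extends SUMO chains, showed the smallest of the 6 changes. It read 99.0, 90.1 and 100.03 on the knockdown arrays, against 65.9, 64.1 and 54.0 on the control arrays. The groups did not overlap on this probe set, and the gene rose 1.38-fold (log2 difference 0.46, SE 0.0905, limma adjusted p = 0.0357). None of its other 4 probe sets passed, with log2 differences from -0.19 to 0.19. The call was lost when any single array was left out, with adjusted p of 0.0834 to 0.142, and when its 5 probe sets were averaged (log2 difference 0.12, limma adjusted p = 0.61).

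**Figure D2:**
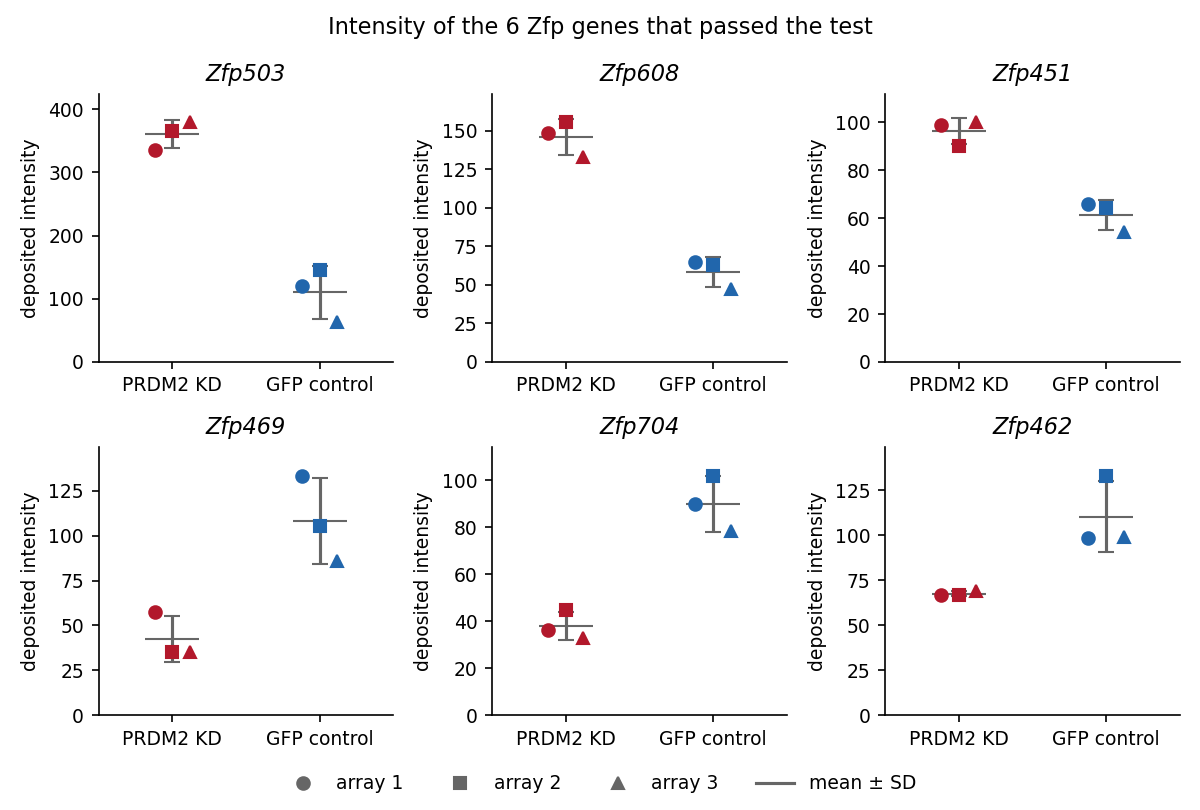
Deposited intensity (linear axis from 0) of the 6 genes that passed, with PRDM2 knockdown on the left (red) and GFP control on the right (blue), 1 point per array and the mean ± SD of 3 arrays in grey. In all 6 panels the 3 knockdown points lie apart from the 3 control points, and for Zfp503 control array 3 stands lowest at 63.9.

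Promoter sequence was at hand for 2 of the 6 genes, both of which rose, and is shown because these genes passed the test. It comes from RefSeq on build GRCm38.p6 and runs from 250 bases before the annotated start to 50 after it, 300 bases in all, 5′ to 3′. Both genes lie on the minus strand, Zfp503 with its window at chr14:21989552-21989851 and Zfp451 at chr1:33814546-33814845. Capitals mark CANNTG, the E-box that MyoD family factors bind, and GGGCGG or its complement CCGCCC, the GC box that Sp and Krüppel-like zinc finger factors bind.
Zfp503: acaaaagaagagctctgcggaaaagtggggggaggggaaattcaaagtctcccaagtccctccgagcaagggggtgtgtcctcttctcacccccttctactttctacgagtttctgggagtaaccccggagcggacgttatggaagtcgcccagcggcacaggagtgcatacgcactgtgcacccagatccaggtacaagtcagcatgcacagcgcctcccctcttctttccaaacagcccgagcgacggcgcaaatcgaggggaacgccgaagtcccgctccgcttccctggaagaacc
Zfp451: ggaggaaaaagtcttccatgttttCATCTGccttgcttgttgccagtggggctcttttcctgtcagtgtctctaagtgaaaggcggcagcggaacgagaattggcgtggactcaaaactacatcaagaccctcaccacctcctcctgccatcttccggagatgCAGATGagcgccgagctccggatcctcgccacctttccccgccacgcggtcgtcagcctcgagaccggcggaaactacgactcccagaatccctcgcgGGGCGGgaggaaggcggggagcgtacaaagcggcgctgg
The Zfp503 window holds neither motif, and the Zfp451 window holds 2 E-boxes and 1 GC box. Windows were found for 68 of the 93 genes, 86 windows in all, counted on both strands with overlaps allowed. An E-box was in 55.8% of them, against 61.5% of windows of all measured genes at an intensity of 50 or more and 72.3% of all promoter windows. A GC box was in 65.1%, against 66.2% and 35.7%, and the median number of CG dinucleotides per window was 20.5, against 22 and 7. By these letters the promoters of expressed Zfp genes lie near those of expressed genes in general. A match describes letters in the window and not a bound site.

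Zfp704 was first described as a gene induced by glucocorticoid, under the name Gig1. Its intensities were 36.1, 44.7 and 33.0 on the knockdown arrays, against 89.8, 102 and 78.2 on the control arrays. The highest knockdown value lay well under the lowest control value. Zfp704 fell by 1.03 on the log2 scale, so that the control stood 2.05-fold above the knockdown (SE 0.108, limma adjusted p = 0.00326). Its other probe set gave means of 34.7 ± 7.52 in the knockdown and 96.0 ± 14.2 in the control (SD, n = 3 each) and also passed (log2 difference -1.21, limma adjusted p = 0.0234 over all probe sets). Zfp608 and Zfp704 passed in all 15 alternative analyses, with adjusted p up to 0.0386 and 0.0463.

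Zfp469 has a human counterpart in which mutations cause brittle cornea syndrome, a disorder of connective tissue. It read 57.6, 35.1 and 35.4 on the knockdown arrays, against 134, 106 and 86.0 on the control arrays. The groups lay apart, with knockdown array 1 the nearest to the control. Zfp469 fell by 1.16, the largest fall among the 93 genes (SE 0.174, limma adjusted p = 0.0129). Zfp469 passed in 10 of the 15 alternatives. Its adjusted p was 0.112 in the arrays of higher spike signal and 0.117 with ordinary statistics, and leaving out control array 1, knockdown array 2 or knockdown array 3 gave 0.0527, 0.0558 or 0.061.

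Zfp462 encodes a large nuclear protein that, in mouse embryonic stem cells, takes part in silencing by heterochromatin, and the human gene is affected in a developmental syndrome. Its intensities were 66.6, 66.5 and 68.9 on the knockdown arrays, against 98.6, 133 and 98.8 on the control arrays. The knockdown values were nearly equal and all under the control values. Zfp462 fell by 0.68 (SE 0.116, limma adjusted p = 0.0216), and a second probe set was lower without passing, with means of 53.2 ± 5.71 in the knockdown and 96.6 ± 35.01 in the control (SD, n = 3 each). Zfp462 passed in 4 of the 15 alternatives. Its call was lost without control array 3 and without each knockdown array, with adjusted p of 0.0636 to 0.101.

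**Figure D3:**
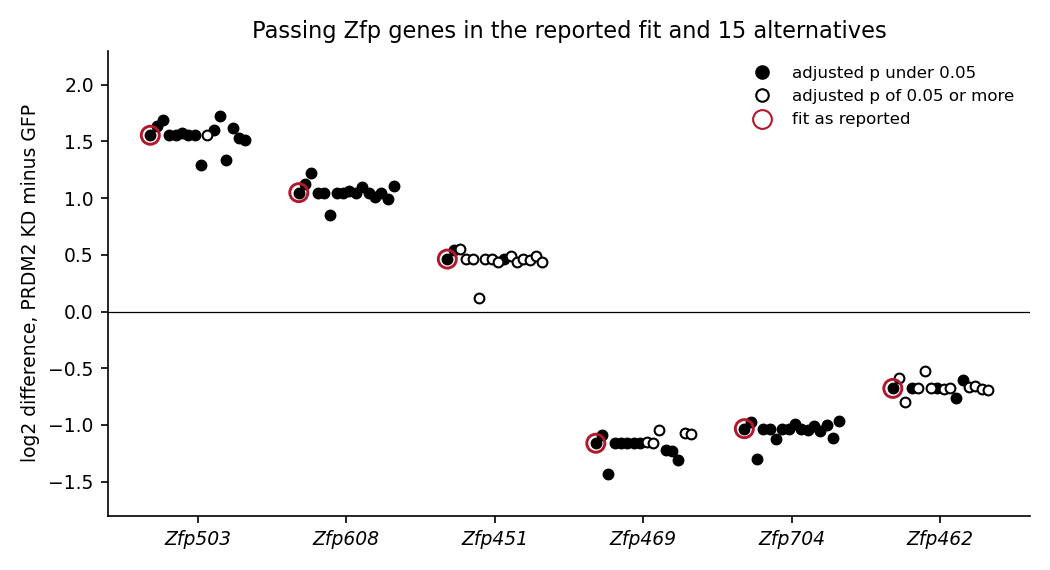
For each gene that passed, the log2 difference (y axis, PRDM2 knockdown minus GFP control) is drawn for the reported fit (ringed) and 15 alternative analyses, filled where the adjusted p was under 0.05 and open otherwise. Signs stay the same throughout, all points of Zfp608 and Zfp704 are filled, and 13 of the 15 alternatives of Zfp451 are open.

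The rule takes a mean over all arrays, so a gene can enter it through 1 group alone. The control mean of the representing probe set was under 50 for 13 of the 93 genes and the knockdown mean for 7. Zfp469 and Zfp704 are among these 7, with knockdown means of 42.7 ± 12.9 and 37.9 ± 6.07 and control means of 108 ± 23.9 and 90.0 ± 11.9 (SD, n = 3 each). Zfp568, Zfp217 and Zfp579 are among the 13, and Zfp367 and Zfp827 among the 7. Of the 73 genes with both means at 50 or more, 3 rose and 1 fell, or 5.48%, and of the 20 others 0 rose and 2 fell, or 10%, against 5.16% of all genes and 7.70% of genes at 50 or more. The rule favours large differences among those 20, and the filter on both means takes them away from the 73. No share over all genes with both means at 50 or more was computed, so nothing is read from either share. The genes nearest to the minimum were Zfp579 at a mean of 50.2 and Zfp367 at 50.3 on the inner side, and Zfp62 at 48.7 and Zfp157 at 47.4 on the outer side.

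Some other genes with sizeable differences did not pass, and 4 of the 5 given next (Zfp568, Zfp217, Zfp579 and Zfp367) reached the minimum through 1 group alone. Zfp568 encodes a KRAB zinc finger protein that silences a placental transcript of Igf2 in the mouse embryo. It read 115, 99.8 and 151 on the knockdown arrays, against 58.6, 50.2 and 17.99 on the control arrays, so that the groups lay apart and control array 3 was far below the other controls. Its log2 difference was 1.27 with an adjusted p just over the threshold (SE 0.284, limma adjusted p = 0.0582). Arrays of higher spike signal gave 0.81 and the 2 of lower signal 2.18, and without control array 3 it was 0.96 (adjusted p = 0.056). Zfp217, whose human counterpart is an oncogene amplified in breast cancer and a partner of the CtBP co-repressors, read 88.2, 56.9 and 77.5 on the knockdown arrays, against 35.3, 44.6 and 21.1 on the control arrays. Here too the groups lay apart without a call (log2 difference 0.83, SE 0.183, limma adjusted p = 0.0559).

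Zfp579 read 74.9, 50.8 and 74.6 on the knockdown arrays, against 34.6, 31.5 and 35.02 on the control arrays. All its knockdown values were above all control values, and the difference was 0.66 (SE 0.157, limma adjusted p = 0.0721). Zfp367 read 31.2, 48.2 and 13.4 on the knockdown arrays, against 74.5, 56.5 and 78.5 on the control arrays. Knockdown array 3 was the lowest, and the log2 difference of -0.97 had a wide interval of -1.67 to -0.27 (limma adjusted p = 0.148). Zfp292, a large protein whose human gene is affected in a neurodevelopmental disorder, read 118, 147 and 120 on the knockdown arrays, against 203, 175 and 147 on the control arrays, with the groups apart by a small gap (log2 difference -0.48, limma adjusted p = 0.0966).

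Zfp genes with a part in chromatin and transcription were among the others named, and none of them passed. Zfp644, whose human counterpart is a partner of the G9a and GLP histone methyltransferases, read 125, 312 and 93.6 on the knockdown arrays, against 164, 119 and 77.8 on the control arrays. Knockdown array 2 alone was high, and without it the log2 difference of 0.30 became -0.18. Zfp281, a repressor of Nanog in mouse embryonic stem cells, differed by 0.23 (95% interval -0.20 to 0.67), and Zfp148, which binds GC-rich promoters, by -0.28 (-0.89 to 0.34). Zfp827, whose human counterpart brings a deacetylase complex to telomeres, differed by -0.32 (-0.79 to 0.14). Zfp64 differed by -0.06 (-0.57 to 0.44), and the human gene is known for driving MLL in leukaemia. Zfp445, a KRAB protein that keeps imprints in the early embryo, read 347, 317 and 291 on the knockdown arrays, against 268, 257 and 179 on the control arrays. Its groups did not overlap, but the difference of 0.35 did not pass (95% interval 0.07 to 0.63, limma adjusted p = 0.204).

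Zfp genes with other tasks, and the remaining named genes, did not pass either. Zfp622, a homologue of a yeast factor that matures the large ribosomal subunit, had the highest intensity of the 93 genes, at 1213 ± 231 in the knockdown and 1247 ± 141 in the control (SD, n = 3 each), and differed by -0.11 (95% interval -0.47 to 0.25). Intensities of different probe sets do not rank genes by abundance. Zfp106, an RNA-binding protein that mice need to keep motor neurons and muscle, read 330, 339 and 453 on the knockdown arrays, against 452, 390 and 396 on the control arrays, with overlap between the groups (log2 difference -0.23, 95% interval -0.61 to 0.16). Zfp207, which binds the checkpoint protein Bub3 at kinetochores, read 192, 254 and 251 on the knockdown arrays, against 220, 272 and 96.8 on the control arrays. Its difference of 0.23 rested on control array 3 and was -0.09 without it. Zfp91, a protein of the alternative NF-kB pathway, differed by 0.07 and Zfp52 by -0.17, Zfp637 by 0.17 and Zfp110, which binds a neurotrophin receptor, by 0.36, all without passing.

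**Figure D4:**
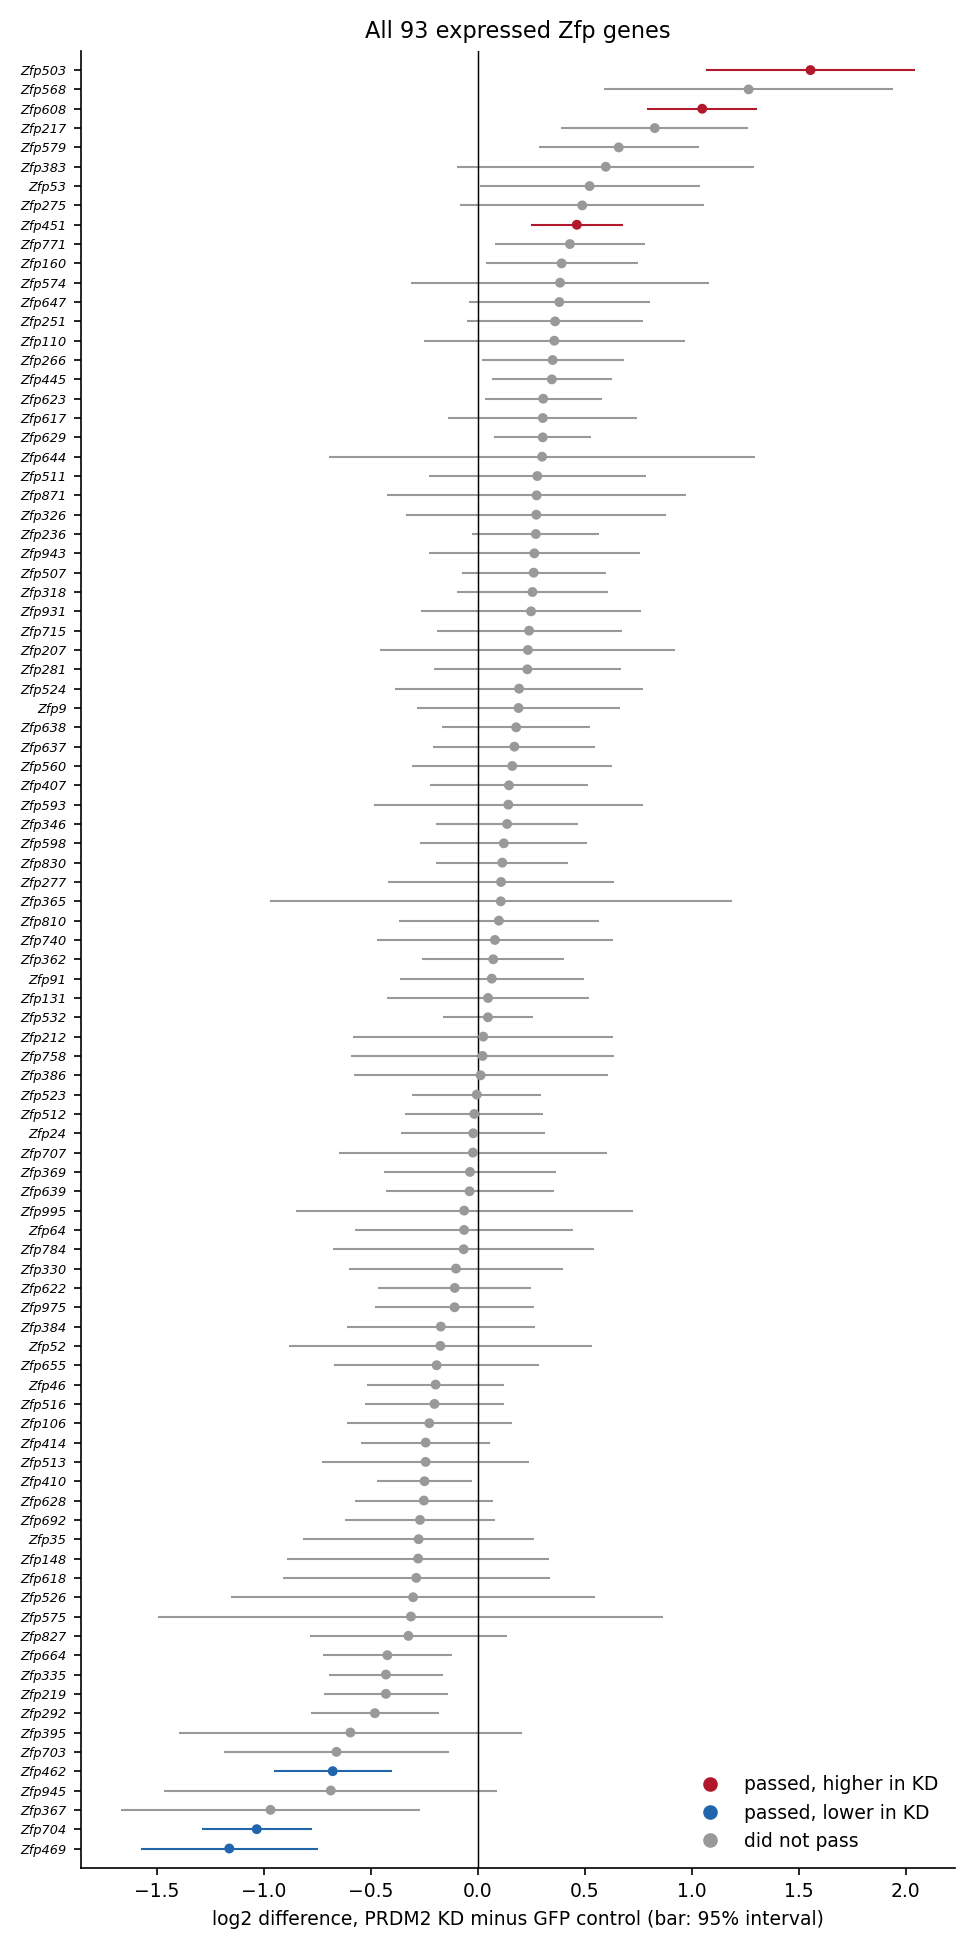
All 93 expressed Zfp genes, ordered by log2 difference (PRDM2 knockdown minus GFP control, x axis), with bars for the 95% interval of the limma fit. From Zfp503 at 1.55 to Zfp469 at -1.16, 53 genes lie above 0 and 40 below, and the 6 that passed are coloured.

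Across the 93 genes the differences were small and went both ways. The median was 0.07 on the log2 scale, with quartiles of -0.20 and 0.27, against a median of -0.00 over all genes. Of the 93, 53 were above 0, or 57.0%, and 49.0% of all genes were. This lean depended on the setting: the median was 0.16 and 60 genes were above 0 in the deposited values without further normalization, and without control array 2 the median was -0.01 and 44 were above 0. The share of all genes above 0 moved too. It was 53.3% in the deposited values, beside 64.5% of the 93, and 44.5% without control array 2, beside 47.3%. The difference was at least 2-fold for 5 genes, which is 5.38%, against 3.20% of all genes and 5.37% of genes at 50 or more. Of these 5, Zfp568, Zfp469 and Zfp704 entered through 1 group alone, and among the 73 genes with both means at 50 or more the count was 2, or 2.74%. That share has no background under the same filter. The groups did not overlap for 24 genes, or 25.8%, against 20.6% of all genes and 24.9% of genes at 50 or more. The knockdown was the higher group for 13 of these genes and the lower for 11, or 14% and 11.8% of the 93. Among all genes 11.0% lay higher and 9.50% lower, and among genes at 50 or more 13.2% and 11.7%.

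On single arrays the median deviation of the 93 genes from their control mean was 0.09, 0.17 and 0.03 on knockdown arrays 1 to 3, against 0.07, -0.08 and 0.01 on control arrays 1 to 3. The ranges of the groups overlap. Control array 3 was the lowest of the 6 arrays for 24 of the 93 genes and the highest for 23, or 25.8% and 24.7%. It stood at the ends and not on one side. Among genes at 50 or more control array 3 was the lowest for 20.4% and the highest for 27.1%. Other arrays were often at an end too. Knockdown array 2 was the highest for 24 of the 93 genes and the lowest for 18, and control array 2 the lowest for 23 and the highest for 12. Over the 93 genes, pairs of arrays of 1 group correlated at 0.789 to 0.900 and pairs from different groups at 0.681 to 0.864, a description only since all genes share the arrays.

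**Figure D5:**
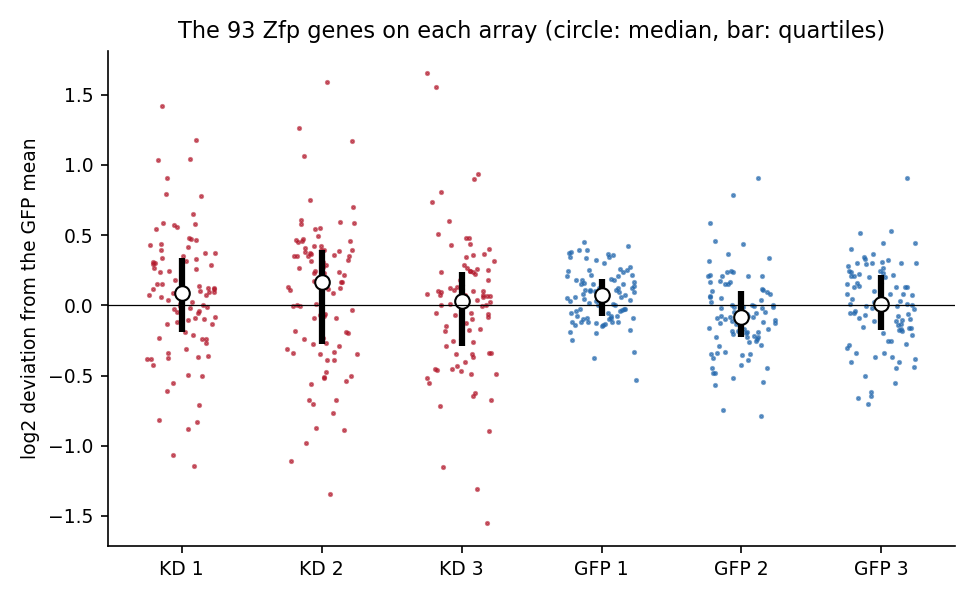
Each dot is 1 of the 93 Zfp genes on 1 array, as its log2 deviation from that gene's mean over the 3 control arrays (y axis), with knockdown arrays in red and control arrays in blue, a circle for the median and a bar for the quartiles. The medians run from -0.08 to 0.17, with overlap between the groups.

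Of the 93 genes, 34 had 1 probe set and 59 had several, 208 probe sets in all. In a fit over all probe sets, 0 genes had a representing probe set that missed the threshold and another that met it. In that fit 3.10% of all single-symbol probe sets passed. Such disagreement was not counted over all genes, so the 0 has no background. Of the representing probe sets, 6 end in _x_at and 2 in _s_at, the suffixes for probes that can also bind other transcripts, and none of the 6 passing genes was among them. All 93 genes matched the mouse gene table of GRCm38.p6, where 4 pairs of them are direct neighbours among protein-coding genes. Signs were opposite in 3 of the pairs, such as Zfp53 with 0.52 and its neighbour Zfp52 with -0.17, and none of these 8 genes passed.

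KRAB zinc finger proteins act through Trim28, the co-repressor named above. Of 31 listed genes of the co-repressor, its chromatin partners and DNA methylation upkeep, 27 were measured, 0 rose and 1 fell by the limma test, which is 3.70% against 5.16% of all genes. At an unadjusted p under 0.05, 0 were higher and 2 lower, or 7.41%, against 15.8% of all genes. The gene that fell was Uhrf1, which guides maintenance of DNA methylation after replication, with intensities of 7.55, 2.35 and 3.35 on the knockdown arrays, against 29.4, 34.99 and 33.3 on the control arrays (log2 difference -1.27, limma adjusted p = 0.00335). Every knockdown value of Uhrf1 lay under 16, a level that limits what can be seen of dim genes. The list had 0 calls in the 4 arrays of higher spike signal and 0 with ordinary statistics. The call of Uhrf1 was thus lost in both. Trim28 itself had 627, 617 and 606 on the knockdown arrays, against 497, 606 and 498 on the control arrays, a log2 difference of 0.12 that did not pass. The histone methyltransferase gene Setdb1 differed by 0.17, and the heterochromatin protein genes Cbx1, Cbx3 and Cbx5 by 0.02, 0.11 and -0.35, all without passing.

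Zbtb genes, the family whose zinc fingers are joined to a BTB domain, gave 1 rise and 1 fall among 39 measured genes, or 5.13%. Over all genes 5.16% passed. Both passing genes were among the 19 Zbtb genes at 50 or more, 10.5% of these, against 7.70% of all genes at that level. Zbtb18, formerly named Zfp238 and known in mouse myoblasts for repressing Id genes during differentiation, had intensities of 314, 309 and 241 on the knockdown arrays, against 146, 123 and 81.2 on the control arrays. The groups lay apart, and Zbtb18 rose by 1.13 (SE 0.168, limma adjusted p = 0.0126). Zbtb4, which binds methylated DNA, read 111, 124 and 73.5 on the knockdown arrays, against 227, 201 and 166 on the control arrays and fell by 0.95 (limma adjusted p = 0.0302). The number of Zbtb genes that passed ran from 0 to 4 over the alternatives, in which the count over all genes moved too.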

How the data were processed

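The authors deposited 1 table of linear intensity values, 1 column for each of the 6 arrays, and GCOS and PLIER are named per the submitters' processing notes, with no versions or settings. Background correction and summary of probes were therefore those of the authors. RNA had been extracted with Trizol and labelled from 8 µg, per the labels' protocols. No deposited column belonged to other samples. The number of arrays limits the precision.

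From the deposited intensity, log2(intensity + 16) was taken and quantile-normalized over all probe sets except controls. A gene was represented by its probe set of highest mean over the 6 arrays. limma 3.58.1 (lmFit and eBayes, R 4.3.3) compared PRDM2 knockdown with GFP control, with Benjamini-Hochberg adjustment over 18193 genes, and a second fit took all 34945 single-symbol probe sets. Fold changes are on the log2(intensity + 16) scale and understate those of dim genes. Printed intensities are the deposited values. The code was tested on simulated data.

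Named genes were those that passed, the 6 of highest intensity, the nearest to the minimum, and a panel of 26 Zfp genes, of which 16 reached the minimum. The genes and lists were chosen with earlier results of these data known. Alternatives covered normalization, offset, filter, variance model, probe sets, blocks and left-out arrays. A description of protein features had been planned and was not run.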

Additional observations from a re-analysis of the deposited data

How the results depend on the processing

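Over 15 alternatives the 25 named Zfp genes gave 375 results, of which 322 kept direction and side of the threshold, 30 kept the direction but no longer passed, 6 newly passed and 17 changed sign. The 3 rises and 3 falls became 2 and 1 in the 4 arrays of higher spike signal and 2 and 1 with ordinary statistics, and with 1 array left out there were 2 to 3 rises and 1 to 3 falls. The count over all genes was 358 and 211 in those analyses and 444 to 815 with 1 array left out. In the reported fit it was 938. The median difference of the 93 genes was 0.16 in the deposited values, and -0.015 to 0.14 with 1 array left out. The Zbtb count was 1 in the deposited values, 1 with an offset of 1, 4 with the replicate block, 4 with the spike block, 1 in the 4 arrays and 0 with ordinary statistics, and 0 to 2 with 1 array left out. The co-repressor count was 0 in the 4 arrays, 0 with ordinary statistics and 1 to 2 with 1 array left out. Genes that changed sign had not passed. Zfp64 was 0.0012 in the deposited values and 0.19 in the 4 arrays, with -0.24 to 0.12 when 1 array was left out. Zfp91 was -0.051 with the mean of probe sets and -0.058 in the 4 arrays, with -0.036 to 0.22 when 1 array was left out. Zfp207 was -0.28 with the mean of probe sets and -0.15 in the 4 arrays, with -0.087 to 0.46 when 1 array was left out. In the 4 arrays Zfp622 was 0.064 and Zfp52 0.15. With 1 array left out, Zfp622 ran from -0.20 to 0.024, Zfp52 from -0.40 to 0.19 and Zfp644 from -0.18 to 0.62. For all of these the cause was not tested. Same-numbered arrays had correlations of their deviations of 0.34, 0.01 and 0.12, and differently numbered arrays of -0.39 to 0.16. These values do not settle whether the numbers mark pairs, which the labels do not state. The main fit took no pairing. With the replicate block 3 Zfp genes rose, 2 fell and 712 genes passed in all. Zfp451 (adjusted p = 0.0903) and Zfp462 (0.0502) then lost their calls and Zfp579 (0.0428) gained one. Intensities under 16, which 55.1% to 58.2% of probe sets had, limit what could be seen of dim genes.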

Other observations

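The Zfp genes under the minimum intensity numbered 211. Their log2 difference was positive for 151, or 71.6%, against 49.0% of all genes, and the median was 0.08. Of these 211 genes 5 rose and 0 fell by the limma test, which is 2.37% against 5.16% of all genes. At an unadjusted p under 0.05 there were 23 higher and 3 lower, or 12.3% with both directions pooled, against 15.8% of all genes. The groups lay apart with the knockdown higher for 16.6% of the 211 and lower for 2.37%, against 11.0% and 9.50% of all genes. Shares over all genes under 50, the like background, were not computed. Genes at 50 or more, which are among all genes, gave 49.9% above 0, 7.70% passing and 23.5% at an unadjusted p under 0.05. Their groups lay apart with the knockdown higher for 13.2% and lower for 11.7%. Each of these shares is above that of all genes, so the shares under 50 lie below those of all genes. The share above 0 was 63.0% to 73.5% over the alternatives that kept all 211 genes, against 44.5% to 54.0% of all genes. With only genes at a mean intensity of 16 or more it was 78.0% of 109, against 49.9%. The difference between dim and expressed Zfp genes was not tested. Zfp521, an antagonist of Ebf1, had intensities of 50.04, 65.1 and 54.3 on the knockdown arrays, against 21.9, 25.7 and 19.4 on the control arrays, with the groups far apart (log2 difference 0.89, limma adjusted p = 0.00633). The other 4 that rose were Zfp719 by 0.71, Zfp846 by 0.50, Zfp566 by 0.53 and Zfp963 by 0.58, named after their values were seen.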
